A study of Chlorocebus aethiops with 8 samples.

Results

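The genes described here encode splicing factors and heterogeneous nuclear ribonucleoproteins (hnRNPs), read by 125 probe sets for 54 genes among the 14132 genes that the array annotation gives under a single symbol. They were taken by symbol alone: every probe set whose single symbol begins with SRSF, SF3A, SF3B, SNRP, PRPF, U2AF or HNRNP, or is SFSWAP or SART1. SR proteins, taken here as the SRSF genes and the SR-like SFSWAP, were represented by 9 genes (18 probe sets). Small nuclear ribonucleoprotein (snRNP) and associated proteins were represented by 29 genes (57 probe sets) and hnRNPs by 16 genes (50 probe sets). The RNA came from COS cells, an African green monkey kidney line that carries a viral large T antigen, and was hybridised to 8 Affymetrix rhesus macaque arrays, so a related species' probes read the transcripts. There were 4 groups of 2 arrays: polysomal RNA from cells given siRNAs against RNA helicase A (RHA, the product of DHX9), polysomal RNA from cells given scrambled control siRNA, and cytoplasmic RNA from cells given each of these. The RHA siRNAs were designed on the human coding sequence, at nucleotides 2701 to 2721 and 2784 to 2803, and all siRNAs were used at 0.5 nM. Cells of every group grew on 7 plates of 100 mm, were starved of serum for 4 h, fed medium with 10% serum for 24 h, split, and given the same siRNA again 24 h later for a further 24 h. Polysomes were collected from sucrose gradients of cytoplasmic lysates, and each array received amplified, biotin-labelled material made from 25 ng of total RNA.

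Splicing removes introns in the spliceosome, which is built from snRNPs: small nuclear RNAs in a ring of Sm proteins, with further proteins particular to each particle. SR proteins bind exons through RNA recognition motifs and recruit the splicing machinery through domains rich in arginine and serine, while hnRNPs coat nascent transcripts, often oppose exon inclusion, and in several cases also act on mRNA stability and translation in the cytoplasm. Many of these genes control their own expression, through exons or introns that send part of their transcripts to decay. RHA is a DExH-box helicase that unwinds RNA and is known to aid the translation of mRNAs with a structured 5′ end.

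The probe set intensities were compared on the log2 scale, and the 26383 non-control probe sets with the higher mean over all arrays, which lay above an intensity of 19.9, were tested. Of the 125 probe sets, 110 passed this limit, and each of the 54 genes kept at least 1: 16 probe sets for SR proteins, 51 for snRNP and associated proteins and 43 for hnRNPs. Nearest to the limit of 4.32 (log2) were probe sets of U2AF1L4 and HNRNPUL2, at a mean of 4.40 each, just inside it, and 1 of SF3B2, at 4.25, just outside. The median of the mean log2 intensity was 7.54 over the 110 probe sets and 6.02 over all tested ones.

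DHX9, the siRNA target, was read above the limit by 1 of its 4 probe sets. That probe set gave 97.2 and 269 in polysomal RNA of RHA siRNA cells (set 1 and set 2, the arrays numbered replicate 1 and replicate 2), against 359 and 477 in control siRNA cells. In cytoplasmic RNA it gave 130.1 and 254 in RHA siRNA cells, against 244 and 342 in control siRNA cells. It was lower with RHA siRNA in both sets and both fractions, at 49.5% of control on average, with a log2 difference of -1.01 ± 0.42 (SE) and an adjusted p = 1 in limma. The sets differed from each other across the table: by limma's adjusted p, 70 of the 110 splicing probe sets (63.6%) differed with the replicate number, and 47 of these were higher in set 2, beside 51.3% of all tested probe sets that differed. In set 1 the cytoplasmic control array was the least like the others, with a median correlation of 0.949 to the other arrays of its set, where every other array had at least 0.967. The signal of the actin, GAPDH and EF1a control probes at the 3′ end minus that at the 5′ end, a sign of RNA and amplification quality, also differed among the set 1 arrays. Its log2 value was 3.73 and 2.54 in polysomal RNA of RHA and control siRNA cells and 2.98 and 4.09 in cytoplasmic RNA of RHA and control siRNA cells, while the set 2 arrays lay between 3.56 and 4.15. Of 13 kidney epithelial markers, 7 were above the limit, among them PAX8 (77.5 to 113) and EPCAM (204 to 447), while UMOD, LRP2 and CDH1 were below it on every array. Of 8 fibroblast markers 7 were above the limit, with VIM at 4043 to 6345, and of 6 leukocyte markers 2 were, CD68 (105 to 286) and CD14 (16.4 to 27.8), while PTPRC was below it on every array. Whether replicates were separate cultures is not in the labels, so the p-values rest on the spread between arrays, which may be technical. In bulk RNA scaled to a common median, fewer transcripts per cell and a larger share of other RNA cannot be told apart.

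No splicing factor or hnRNP probe set passed the test in any of the 7 comparisons. In limma's fit the adjusted p was 1 for each of the 110, and 0 of 26383 probe sets (0%) were called in the table as a whole. At an unadjusted p under 0.05, limma had 3 of the 110 for RHA against control siRNA in both fractions, 1 in polysomal and 3 in cytoplasmic RNA, beside 2.05%, 0.519% and 1.61% of all tested probe sets. In the other comparisons it had 2 for polysomal against cytoplasmic RNA with control siRNA (0.208% of all tested) and 0 for the difference between fractions (0.174%), for polysomal against cytoplasmic RNA with RHA siRNA (0.265%) and over both siRNAs (0.224%). When the replicate number was added to the model (the replicate block), limma called 0 of the 110 and 0.00758% of all tested over both fractions, and an unadjusted p under 0.05 was reached by 16 of the 110 over both fractions (12% of all tested), 5 in polysomal RNA (5.06%), 35 in cytoplasmic RNA (12%) and 22 for the difference between fractions (3.97%). In that fit the lowest adjusted p among the 110 was 0.162 in both fractions (SRSF10), 0.963 in polysomal RNA (HNRNPA0) and 0.275 in cytoplasmic RNA (HNRNPUL2). The differences are therefore given as descriptions of these arrays, set by set. Each SE, given after ±, is that of the fit without the block, so the distance between the sets enters it.

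**Figure D1:**
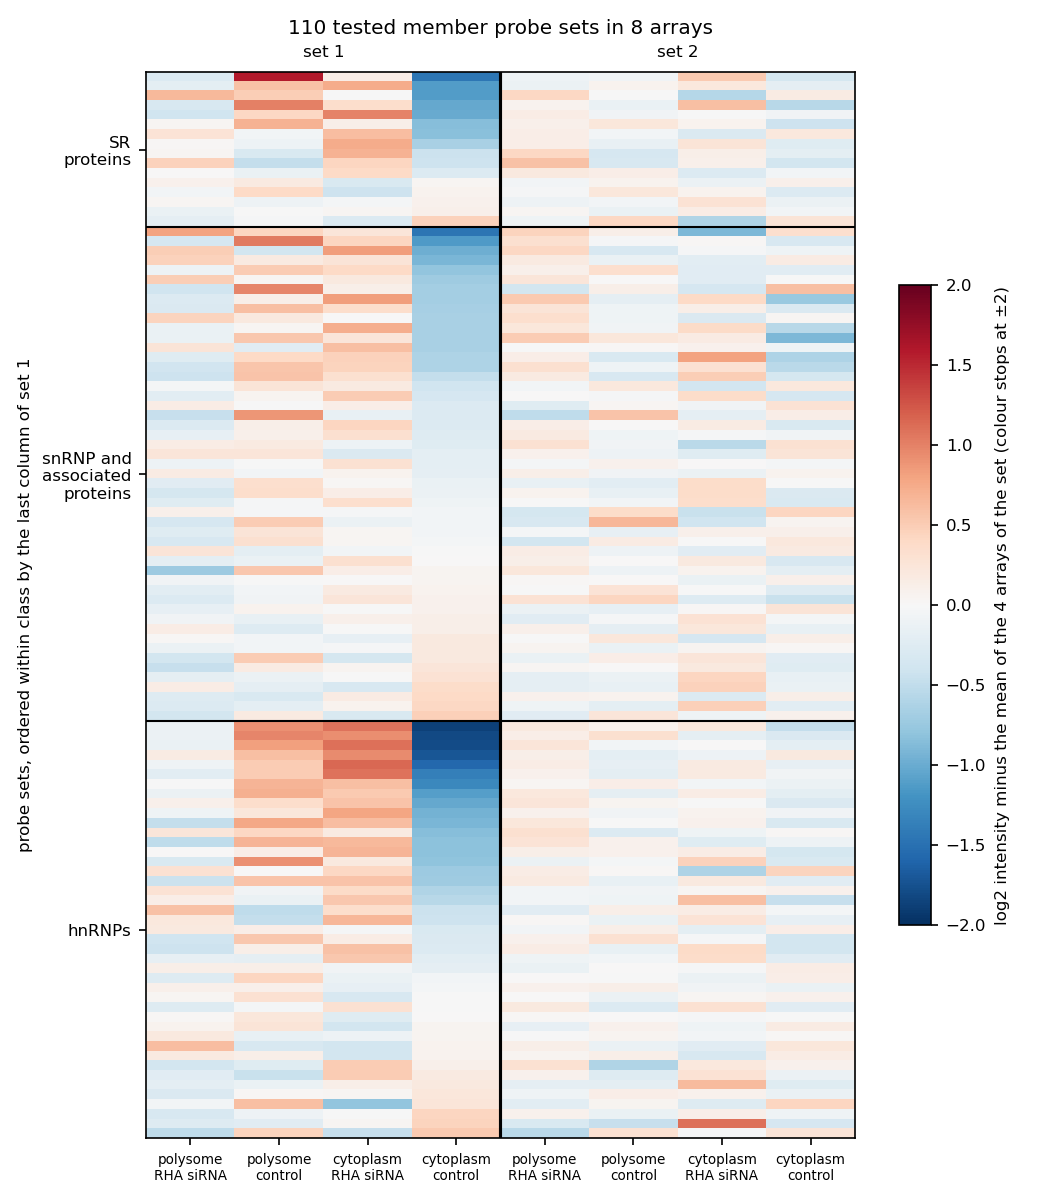
Log2 intensity of the 110 tested probe sets, each minus its mean over the 4 arrays of its set, by class (rows) and array (columns). Rows are ordered within a class by the cytoplasmic control array of set 1, where 27 of the 110 were at least 2-fold under the mean of the other 3 arrays of their set.

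As the heat map of the tested probe sets shows, the largest departures lay on 1 array. On the cytoplasmic control array of set 1, 27 of the 110 probe sets (24.5%) were at least 2-fold under the mean of the rest of their set: 7 of SR proteins, 5 of snRNP and associated proteins and 15 of hnRNPs. For all tested probe sets the share on that array was 9.49%, and on each of the other 7 arrays at most 1 of the 110 was as far under. The cytoplasmic RHA siRNA array and the polysomal control array of set 1 each had 10 of the 110 (9.09%) at least 2-fold over the rest, beside 3.46% and 2.6% of all tested probe sets. The part of RNA quality in these values was not tested.

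Among SR proteins, the highest siRNA difference over both fractions was that of SRSF10, an SR protein known to repress splicing in its dephosphorylated state. Its probe set MmugDNA.3090.1.S1_at gave 315 and 509 in polysomal RNA of RHA siRNA cells, against 163 and 272 in control siRNA cells. In cytoplasmic RNA it gave 308 and 365 in RHA siRNA cells, against 171 and 263 in control siRNA cells. All 4 RHA siRNA arrays lay above all 4 control arrays. The log2 difference over both fractions was 0.79 ± 0.31 (SE), with 0.90 in set 1 and 0.69 in set 2. The other SRSF10 probe set, MmugDNA.35582.1.S1_at, also had no overlap: it gave 239 and 289.9, against 189 and 174, in polysomal RNA, and 374 and 238, against 172 and 189.9, in cytoplasmic RNA (RHA siRNA against control siRNA), a difference of 0.63 ± 0.25. SRSF10 was thus read higher by both of its tested probe sets in each set and fraction, although neither passed the test (adjusted p = 1 in limma).

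SRSF6, an SR protein that binds exonic enhancers, was higher with RHA siRNA in its probe set MmuSTS.3957.1.S1_at, by 0.57 ± 0.25 over both fractions. Its cytoplasmic intensities were 770.4 and 470.4 in RHA siRNA cells, against 293 and 336 in control siRNA cells, and its polysomal ones 468 and 432 in RHA siRNA cells, against 429.5 and 357 in control siRNA cells. All RHA siRNA arrays of this probe set lay above all control arrays, though in polysomal RNA by a small margin. The second SRSF6 probe set did not repeat this: its log2 difference was 0.41 in set 1 and -0.09 in set 2. These 3 probe sets of SRSF10 and SRSF6 were the only ones of the 110 that were higher without overlap between RHA siRNA and control siRNA arrays over both fractions (2.73% of the 110, beside 1.43% of all tested probe sets). 2 of the 110 were lower without overlap (1.38% of all tested were): SRSF12, known to oppose other SR proteins in splicing, and SF3A1.

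SRSF12 was lower in its dim probe set MmugDNA.12210.1.S1_at, which gave 33.2 and 33.0 in polysomal RNA of RHA siRNA cells, against 36.7 and 46.6 in control siRNA cells, and 31.1 and 23.1 in cytoplasmic RNA of RHA siRNA cells, against 51.7 and 41.7 in control siRNA cells. The difference was -0.56 ± 0.24 over both fractions. Its other probe set had 0.05 ± 0.46, with the groups overlapping. SRSF9, an SR protein with a short arginine-serine tail, was lower with RHA siRNA in each pair, though by little. It gave 5097 and 5023, against 5427 and 5471, in polysomal RNA (RHA siRNA against control siRNA). In cytoplasmic RNA it gave 3862 and 4823, against 4949.9 and 5598, and the difference over both fractions was -0.20 ± 0.21.

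SRSF5, an SR protein first known as a growth-induced gene of rat liver, had the widest gap between the fractions among the SR proteins. Its probe set MmugDNA.24557.1.S1_at gave 149 and 354 in polysomal RNA of RHA siRNA cells, against 374 and 309 in control siRNA cells. In cytoplasmic RNA the same probe set gave 237 and 514 in RHA siRNA cells, against 91.7 and 231 in control siRNA cells. The cytoplasmic groups did not overlap and were higher with RHA siRNA in both sets (log2 1.37 and 1.16), while the polysomal difference was -1.33 in set 1 and 0.19 in set 2. A dimmer probe set of the same gene gave 64.0 and 312 in cytoplasmic RNA of RHA siRNA cells, against 21.3 and 170.0 in control siRNA cells, and its difference was 1.59 in set 1 and 0.88 in set 2. The third SRSF5 probe set, MmugDNA.24736.1.S1_s_at, gave 378 and 576 in cytoplasmic RNA of RHA siRNA cells, against 530.2 and 451 in control siRNA cells, so that its sign differed between the sets (-0.49 and 0.35).

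**Figure D2:**
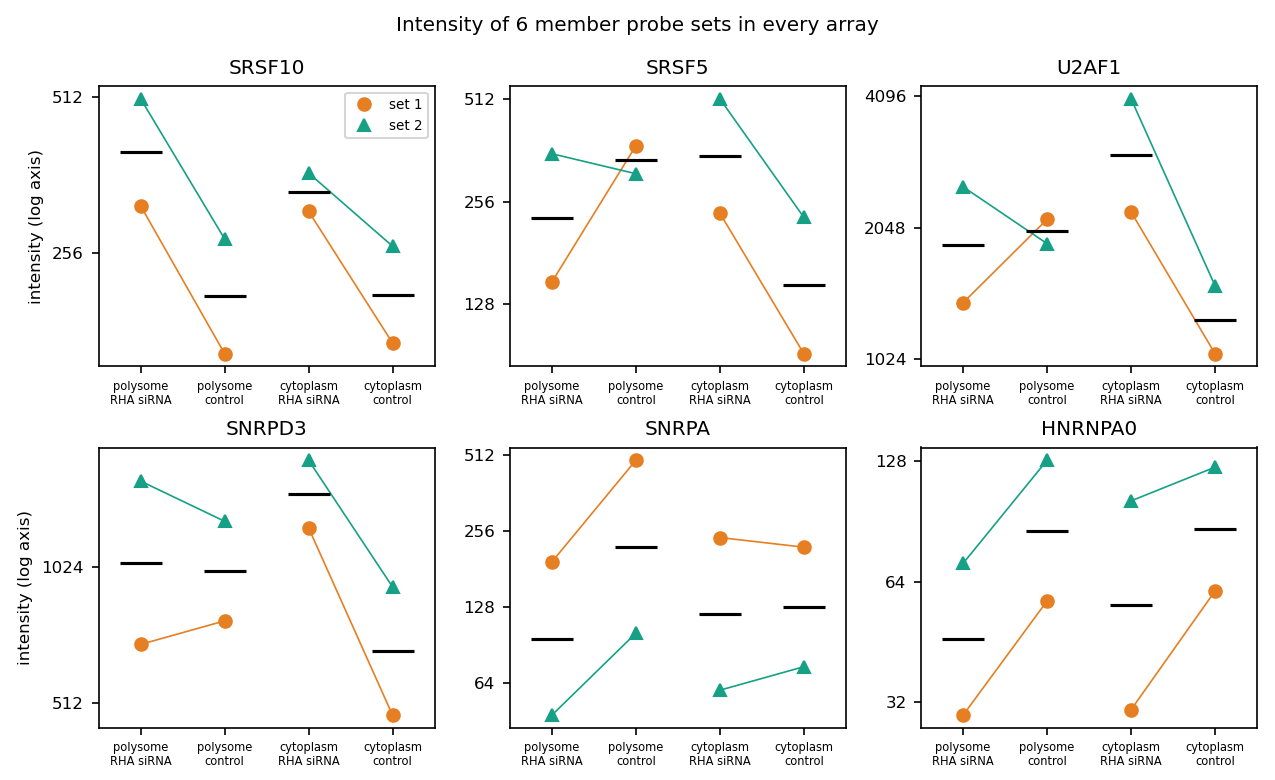
Intensity (log axis) of 6 probe sets on every array, by group, with circles for set 1, triangles for set 2, thin lines joining the RHA and control siRNA arrays of a set and fraction, and bars at the mean of the log2 values (n = 2). SRSF10 is higher and HNRNPA0 lower with RHA siRNA in every pair, SRSF5, U2AF1 and SNRPD3 are higher in both cytoplasmic pairs, and SNRPA is lower in both polysomal pairs.

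In the snRNP class, the U2AF heterodimer, which marks the end of an intron for the U2 snRNP, was among the genes higher in cytoplasmic RNA. U2AF1, its small subunit, gave 2227 and 4042 in cytoplasmic RNA of RHA siRNA cells, against 1055 and 1509.8 in control siRNA cells (MmugDNA.14832.1.S1_at). In polysomal RNA it gave 1379.8 and 2542 in RHA siRNA cells, against 2141 and 1884 in control siRNA cells. The cytoplasmic groups were apart (log2 1.08 in set 1 and 1.42 in set 2), and the polysomal ones overlapped. U2AF2, the large subunit that binds the polypyrimidine tract, gave 225 and 458 in cytoplasmic RNA of RHA siRNA cells, against 125 and 281 in control siRNA cells (MmugDNA.40973.1.S1_at). That difference was 0.84 in set 1 and 0.71 in set 2, smaller than the distance between the sets. The dimmer second probe sets of both genes read less, with 0.17 and 0.38 for U2AF1 and -0.13 and 0.38 for U2AF2.

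Of the Sm ring, SNRPB and SNRPD3 were higher in cytoplasmic RNA in both sets. SNRPD3 (chosen after its values were seen) gave 1251 and 1765 in RHA siRNA cells, against 482 and 926 in control siRNA cells, and in polysomal RNA 691 and 1587 in RHA siRNA cells, against 779 and 1294 in control siRNA cells. SNRPB gave 841 and 489 in cytoplasmic RNA of RHA siRNA cells, against 484 and 271 in control siRNA cells (MmuSTS.1145.1.S1_at), and its polysomal difference changed sign between the sets (-0.98 and 0.51). Its second probe set had cytoplasmic differences of 1.06 and 0.84. Of 2 other Sm proteins, chosen after their values were seen, SNRPF was also higher in both sets, by 1.25 and 0.17, while SNRPE had 0.03 and -0.88 in its brighter probe set and -0.09 and -0.25 in the other.

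Particle-specific proteins moved in different directions. SNRPA, the U1 protein that binds a stem-loop of U1 RNA, gave 194 and 47.8 in polysomal RNA of RHA siRNA cells, against 489.7 and 101 in control siRNA cells, and in cytoplasmic RNA 242 and 60.0, against 222 and 74.4 (chosen after its values were seen). Its polysomal difference was -1.34 and -1.08, smaller than the distance between the sets, so that the groups overlapped. SF3A1, a U2 snRNP subunit, gave 75.9 and 76.8 in polysomal RNA of RHA siRNA cells, against 135 and 152 in control siRNA cells (MmugDNA.431.1.S1_s_at), with 87.9 and 73.0, against 92.0 and 100.0, in cytoplasmic RNA. That probe set had no overlap, with a difference of -0.58 ± 0.21 over both fractions. The brightest SF3A1 probe set, MmugDNA.797.1.S1_at, was also lower in each pair. It gave 617 and 1476, against 895 and 2042, in polysomal RNA, and 645 and 1624, against 1105 and 1827, in cytoplasmic RNA. Others were higher, and the 7 tested probe sets of SF3A1 ranged from -0.58 to 0.25 over both fractions. SF3B5, a small subunit of the same particle, gave 336 and 1045 in polysomal RNA of RHA siRNA cells, against 186 and 628 in control siRNA cells (MmugDNA.6283.1.S1_at). In cytoplasmic RNA that probe set gave 427 and 772, against 121 and 740.2. It was higher with RHA siRNA in each pair, at 0.87 ± 0.75 over both fractions, but its other 2 probe sets had 0.06 ± 0.46 and -0.02 ± 0.37.

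Proteins of the U4/U6.U5 tri-snRNP varied with the set in polysomal RNA. PRPF31, a U4/U6 protein chosen after its values were seen, gave 36.0 and 13.1 in polysomal RNA of RHA siRNA cells, against 93.5 and 18.2 in control siRNA cells, in a dim probe set (MmugDNA.19629.1.S1_at). It was lower in both sets there (-1.38 and -0.47) and in MmuSTS.3231.1.S1_at (-0.30 and -0.28), while its other tested probe set had -0.50 and 0.12. PRPF8, the core protein of the U5 snRNP, gave 188 and 97.8 in polysomal RNA of RHA siRNA cells, against 487 and 76.7 in control siRNA cells, so the sets had opposite signs (-1.37 and 0.35). In cytoplasmic RNA PRPF8 gave 318 and 79.3 in RHA siRNA cells, against 108 and 62.2 in control siRNA cells. PRPF3, a U4/U6 protein chosen after its values were seen, gave 155 and 292 in cytoplasmic RNA of RHA siRNA cells, against 54.2 and 132 in control siRNA cells, without overlap. SART1, which joins the tri-snRNP to the spliceosome, gave 38.1 and 35.8, against 20.5 and 17.2; its cytoplasmic control mean lay under the limit of the test, so the fold is a description of dim signal. PRPF38A and PRPF38B, proteins of the spliceosome before activation, had cytoplasmic differences of -0.23 and -0.39 for PRPF38A and of -0.09 and -0.50 for the brightest PRPF38B probe set.

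Among hnRNPs, HNRNPA0, which binds AU-rich elements of mRNAs, was lower with RHA siRNA in each pair of its dim probe set MmugDNA.15472.1.S1_at. It gave 29.7 and 71.2 in polysomal RNA of RHA siRNA cells, against 57.3 and 129 in control siRNA cells, and 30.7 and 102 in cytoplasmic RNA of RHA siRNA cells, against 60.7 and 124 in control siRNA cells. The difference was -0.77 ± 0.56 over both fractions, and the sets lay so far apart that the groups overlapped. The bright HNRNPA0 probe set MmugDNA.43038.1.S1_s_at did not share it, at -0.04 ± 0.24. HNRNPLL, a regulator of alternative splicing known from T cells, gave 129 and 112 in cytoplasmic RNA of RHA siRNA cells, against 265 and 181 in control siRNA cells (MmugDNA.6746.1.S1_at), and over both fractions its difference was -0.66 ± 0.39. The brightest HNRNPLL probe set was also lower in cytoplasmic RNA (-0.44 and -0.46), but the third tested one changed sign between the sets (1.15 and -1.06) and had 0.13 ± 0.37 over both fractions.

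HNRNPUL2, a relative of the scaffold protein HNRNPU, was at least 1.5-fold higher in cytoplasmic RNA in both sets in 1 of its 3 tested probe sets. This was MmugDNA.5291.1.S1_at (log2 1.09 and 1.06). That probe set gave 86.5 and 1283 in RHA siRNA cells, against 40.5 and 614 in control siRNA cells, so the sets differed far more than the siRNAs. In polysomal RNA it gave 64.8 and 808, against 54.3 and 797. The brightest HNRNPUL2 probe set, MmugDNA.22236.1.S1_at, did not share the cytoplasmic difference (-0.13 and 0.07), and the dimmest, near the limit, had 0.44 and 0.35. HNRNPH1, which binds G-rich sequence, was higher in each pair in a dim probe set, with 55.1 and 63.4, against 34.4 and 56.8, in polysomal RNA and 75.7 and 75.3, against 35.9 and 55.6, in cytoplasmic RNA, a difference of 0.59 ± 0.28. A somewhat brighter HNRNPH1 probe set was also higher in each pair, with 77.1 and 101, against 66.2 and 80.0, in polysomal RNA. In cytoplasmic RNA it gave 129 and 116, against 102 and 88.0. The brightest HNRNPH1 probe set, MmuSTS.2519.1.S1_at, had 0.01 ± 0.49, and the dimmest tested one changed sign between the sets in both fractions. HNRNPH2, the closest relative of HNRNPH1, went the other way in the 2 fractions: it gave 169 and 133 in polysomal RNA of RHA siRNA cells, against 88.1 and 111 in control siRNA cells, and 86.0 and 105 in cytoplasmic RNA of RHA siRNA cells, against 116 and 144 in control siRNA cells. Neither pair of groups overlapped.

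HNRNPA1, a repressor of exon inclusion, and the brightest probe set of HNRNPK, a poly(C)-binding protein, had no siRNA difference of the same sign in both sets and fractions. HNRNPA1, read by a probe set with probes that match other sequences, gave 1462 and 1526 in polysomal RNA of RHA siRNA cells, against 689 and 1937 in control siRNA cells, and 1254 and 1993 in cytoplasmic RNA, against 725 and 1740.5. HNRNPK gave 5179 and 3570.1 in polysomal RNA of RHA siRNA cells, against 5169.6 and 3907 in control siRNA cells, and 4531 and 3834 in cytoplasmic RNA, against 4199.9 and 4351 (MmuSTS.586.1.S1_at). Its difference over both fractions was -0.05 ± 0.24. This HNRNPK probe set varied little between arrays, whereas the 5 tested probe sets of the gene had cytoplasmic differences from -0.39 to 2.89 in set 1 and from -0.18 to 1.45 in set 2.

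**Figure D3:**
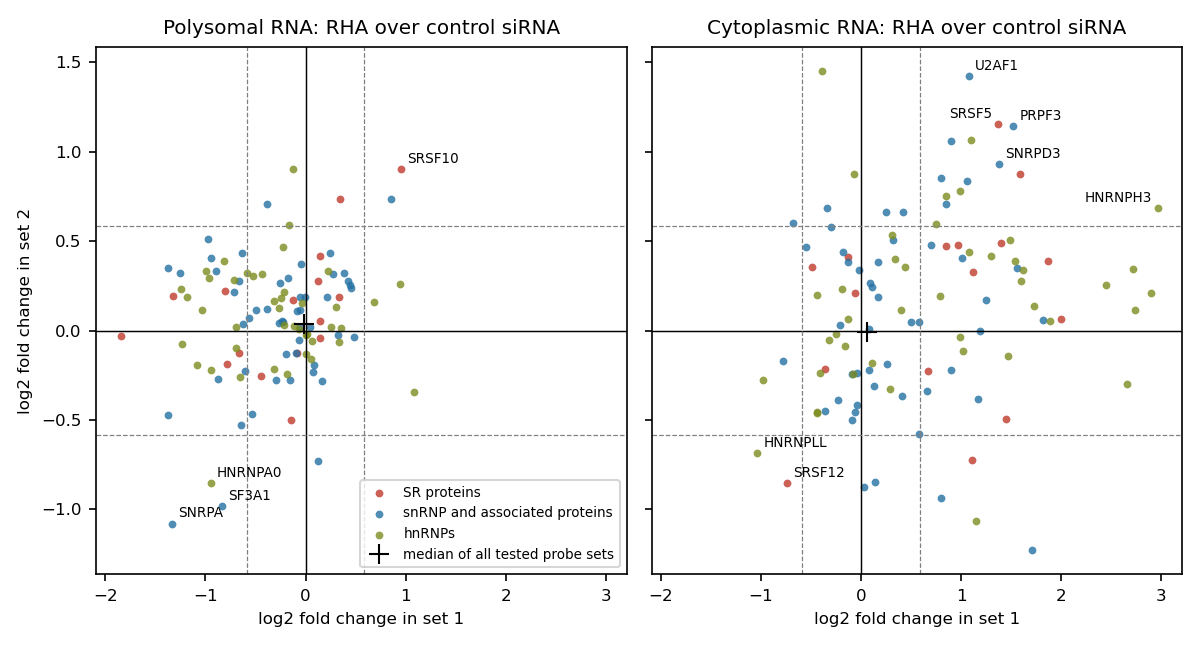
Log2 fold change of RHA over control siRNA in set 1 (x axis) and set 2 (y axis) for the 110 tested probe sets, in polysomal (left) and cytoplasmic RNA (right), with a cross at the median of all tested probe sets and dashed lines at 1.5-fold. In cytoplasmic RNA 14 probe sets lie past 1.5-fold in the upper right corner and 2 in the lower left, and in polysomal RNA 2 and 3.

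Counted over all members, higher cytoplasmic levels with RHA siRNA were the most frequent pattern, as the scatter of the sets shows. At least 1.5-fold higher in both sets were 14 of the 110 probe sets (12.7%), for 11 genes, against 3.01% of all tested probe sets: SRSF5, SNRPB, HNRNPUL1 (each with 2 probe sets), SNRPD3, U2AF1, U2AF2, PRPF3, SART1, HNRNPDL, HNRNPH3 and HNRNPUL2. HNRNPDL and HNRNPUL1 were named only because they are among these 14. Lower in both sets by as much were 2, of SRSF12 and HNRNPLL, against 2.66% of all tested. In set 2 alone, which does not use the array that stood apart, 20 of the 110 (18.2%) were at least 1.5-fold higher, against 11.2% of all tested, and 8 were lower, against 14.4%. In set 1 alone 52 (47.3%) were higher, against 23% of all tested, and 5 lower, against 10.6%. Without overlap between the cytoplasmic groups, 21 were higher (10.5% of all tested were) and 5 lower (8.9%). In polysomal RNA 2 of the 110 (1.82%) were at least 1.5-fold higher in both sets (SRSF10 and SF3B5; 1.44% of all tested) and 3 (2.73%) lower (SNRPA, SF3A1 and HNRNPA0; 1.12%), and 5 were higher and 9 lower without overlap (7.91% and 7.79%). The polysomal counts differed by set: in set 1 alone 34 were at least 1.5-fold lower (12% of all tested) and 5 higher (7.92%), and in set 2 alone 4 were lower (4.87%) and 6 higher (9.46%). Over both fractions 2 were at least 1.5-fold higher in both sets (SRSF10 and SNRPD3; 1.43% of all tested) and 1 lower (SNRPA; 1.17%), with 27 higher and 5 lower in set 1 alone (11.9% and 5.34%) and 9 higher and 5 lower in set 2 alone (6.66% each).

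Class by class, the median log2 level of hnRNPs was 7.76 and 8.24 in polysomal RNA of RHA siRNA cells, against 8.30 and 8.28 in control siRNA cells, and 8.04 and 8.28 in cytoplasmic RNA of RHA siRNA cells, against 6.86 and 8.01 in control siRNA cells (set 1 and set 2). For SR proteins it was 7.48 and 8.21, against 7.55 and 7.75, in polysomal RNA, and 7.80 and 8.09, against 6.85 and 7.71, in cytoplasmic RNA. For snRNP and associated proteins it was 7.11 and 7.52, against 7.36 and 7.54, in polysomal RNA, and 7.28 and 7.65, against 6.96 and 7.18, in cytoplasmic RNA. In all 3 classes the cytoplasmic control array of set 1 had the lowest value. The ranges of the single differences overlapped between the classes in every comparison. In cytoplasmic RNA the median log2 difference was 0.57 for SR proteins, 0.17 for snRNP and associated proteins and 0.48 for hnRNPs, beside 0.05 for all tested probe sets. In set 1 these were 1.04, 0.25 and 0.79, and in set 2 0.34, 0.06 and 0.20, beside 0.06 and -0.01 for all tested. Without SFSWAP, the 14 SRSF probe sets had a cytoplasmic median of 0.35, under that of hnRNPs, with 0.98 in set 1 and 0.27 in set 2. With 1 probe set a gene, the brightest, the cytoplasmic medians were 0.22, 0.18 and -0.03, so that the hnRNP value rested on the dimmer probe sets. In polysomal RNA the medians were -0.04, -0.09 and -0.06, with a negative sign for every class in set 1 and a positive one in set 2 (all between 0.11 and 0.12). The negative sign of the SR class depended on SFSWAP. The 14 SRSF probe sets alone had 0.03, with 0.02 in set 1 and 0.18 in set 2. Above 0 were 40 of the 110 in polysomal RNA (50.9% of all tested) and 78 in cytoplasmic RNA (55.9% of all tested).

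**Figure D4:**
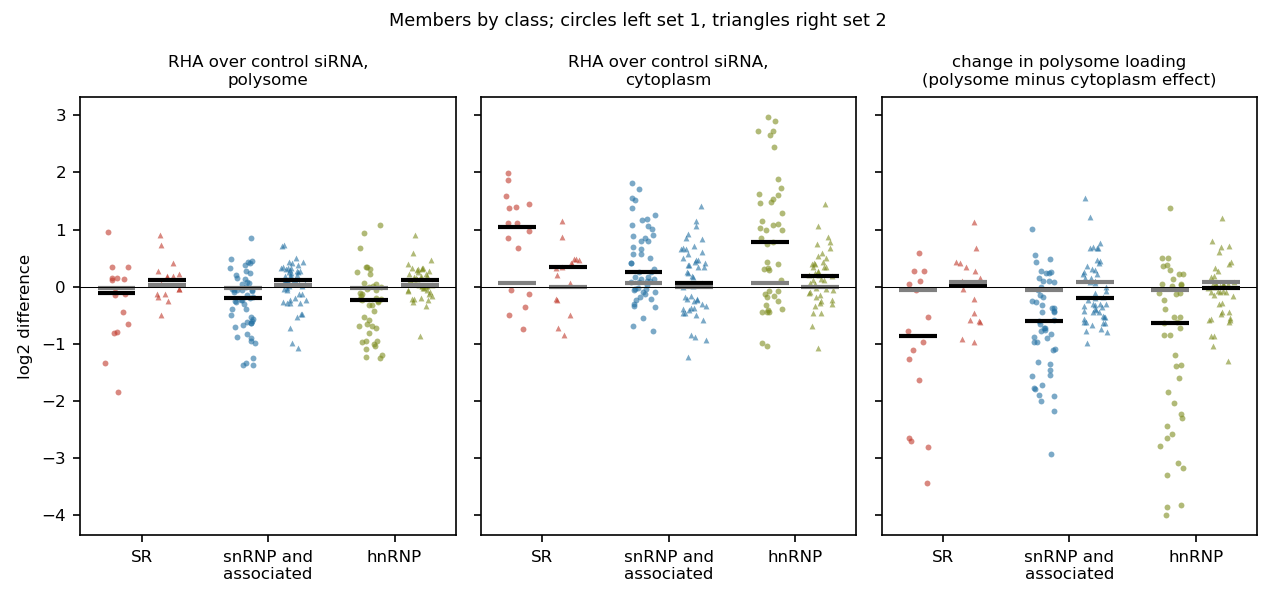
Log2 differences of the tested probe sets by class, with set 1 as circles (left of each pair) and set 2 as triangles (right), for RHA over control siRNA in polysomal RNA, in cytoplasmic RNA, and for the polysomal minus the cytoplasmic difference. Black bars are class medians and grey bars the medians of all tested probe sets, and the class medians of set 2 lie nearer to 0 than those of set 1 in cytoplasmic RNA and in the difference between fractions.

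Whether RHA siRNA altered the share of a transcript on polysomes is addressed by the polysomal minus the cytoplasmic siRNA difference, which uses the same cytoplasmic arrays as above, with the opposite sign. Its median over the 110 was -0.31, beside -0.02 for all tested probe sets, with -0.64 in set 1 and -0.07 in set 2 (all tested -0.06 and 0.08). By class it was -0.20 for SR proteins (-0.15 without SFSWAP), -0.34 for snRNP and associated proteins and -0.34 for hnRNPs. Above 0 were 30 of the 110, beside 48% of all tested. At least 1.5-fold lower in both sets were 12 probe sets for 10 genes, against 2.15% of all tested, and 1 was higher, against 2.05%. In set 1 alone 58 were lower (25.7% of all tested) and 3 higher (12.7%), and in set 2 alone 18 were lower (9.44%) and 14 higher (16.3%). The 12 held SRSF5 with 2 probe sets (-3.44 and -0.91 for the first, -2.70 and -0.96 for the second), SFSWAP, an SR-like regulator of its own splicing (-1.63 and -0.60), U2AF1 (-1.71 and -0.99), U2AF2 (-1.11 and -0.66) and SART1 (-1.56 and -0.78). They also held SNRPA, SNRPC, SNRPD3, HNRNPUL1 with 2 probe sets and HNRNPUL2, and the 1 that was higher was HNRNPH2 (1.38 and 0.71). Other named genes had 1 or 2 probe sets higher in both sets, by less (1 probe set of each is given): SRSF12 (0.59 and 0.35), SRSF10 (0.10 and 0.43), SRSF9 (0.27 and 0.09), SF3B5 (0.49 and 0.67), PRPF38A (0.28 and 0.41), PRPF38B (0.09 and 0.69), HNRNPLL (0.50 and 0.40) and HNRNPH1 (0.50 and 0.02). The genes were not uniform in this. SRSF12, SF3B5 and HNRNPH1 also had a tested probe set that was lower in both sets, which for SRSF12 was the brighter one. SRSF10, PRPF38B and HNRNPLL also had one that was lower in set 1 and higher in set 2. None passed limma's test: the lowest adjusted p among the 110 was 1, and 0.967 with the replicate block. The 3′ minus 5′ signal of the control probes had a difference of 2.29 in set 1 and -0.07 in set 2 in the same comparison, and its part was not tested.

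Further members with a larger difference in set 1 than in set 2 were HNRNPD, a decay factor for AU-rich mRNAs, HNRNPU, a nuclear scaffold protein, and HNRNPH3, a relative of HNRNPH1. HNRNPD gave 1003 and 1710.5 in cytoplasmic RNA of RHA siRNA cells, against 152 and 1346 in control siRNA cells (MmugDNA.29142.1.S1_s_at), HNRNPU 245 and 499, against 36.8 and 461 (MmugDNA.31800.1.S1_at), and HNRNPH3 309 and 781, against 39.6 and 487 (MmugDNA.35268.1.S1_at). In each, the low value was that of the set 1 control array, and in set 2 the cytoplasmic log2 differences were 0.35, 0.11 and 0.68. SNRPB had a polysomal minus cytoplasmic difference of -2.01 and -0.43 (MmugDNA.16909.1.S1_at), and SRSF6 one of -1.27 and -0.21.

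Leaving out the cytoplasmic control array of set 1, with the replicate block kept (chosen after seeing the data), left the median cytoplasmic difference of the 110 at 0.26, with 71 of them above 0, against 0.29 and 78 with all arrays. The class medians were then 0.35 for SR proteins, 0.21 for snRNP and associated proteins and 0.26 for hnRNPs, and the median of all tested probe sets was 0.02. The polysomal minus cytoplasmic median was -0.33, with 39 of the 110 above 0. Without the block, where the difference between the sets enters, the same omission gave a cytoplasmic median of 0.01 with 56 above 0. Over both fractions the median of the 110 was 0.15 with all arrays (74 above 0, beside 54.9% of all tested) and 0.04 without that array (66 above 0).

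Polysomal RNA was compared with cytoplasmic RNA under each siRNA, on the same 8 arrays. With RHA siRNA the median polysomal minus cytoplasmic difference of the 110 was -0.20, with 34 above 0 (52.7% of all tested), and with control siRNA 0.19, with 81 above 0 (59.8% of all tested). Both values rested on set 1, which holds the array least like the others: with RHA siRNA the median was -0.34 in set 1 and 0.0023 in set 2, and with control siRNA 0.38 in set 1 and 0.028 in set 2. Over both siRNAs it was 0.08, beside 0.07 for all tested probe sets, with 70 above 0 (61.7% of all tested), and 0 of the 110 were apart without overlap in either direction (0.36% of all tested were higher and 0.504% lower). Within each set, both polysomal arrays exceeded both cytoplasmic ones in 1 of 3 tested probe sets of HNRNPUL2 and 1 of 5 of HNRNPD. In the others of these genes this did not hold in both sets. The share of all tested probe sets that met this looser rule is not given here, so no enrichment on polysomes is read from it. For HNRNPUL2 the difference was 0.20 ± 0.37 (MmugDNA.22236.1.S1_at), with 314 and 533 in polysomal and 263 and 479 in cytoplasmic RNA of RHA siRNA cells, and 315 and 542 in polysomal and 287 and 458 in cytoplasmic RNA of control siRNA cells. For HNRNPD it was 0.14 ± 0.23 (MmuSTS.123.1.S1_at). In this comparison too, the 3′ minus 5′ signal moved with the set: 0.74 and 0.25 with RHA siRNA, against -1.55 and 0.32 with control siRNA, in set 1 and set 2.

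**Figure D5:**
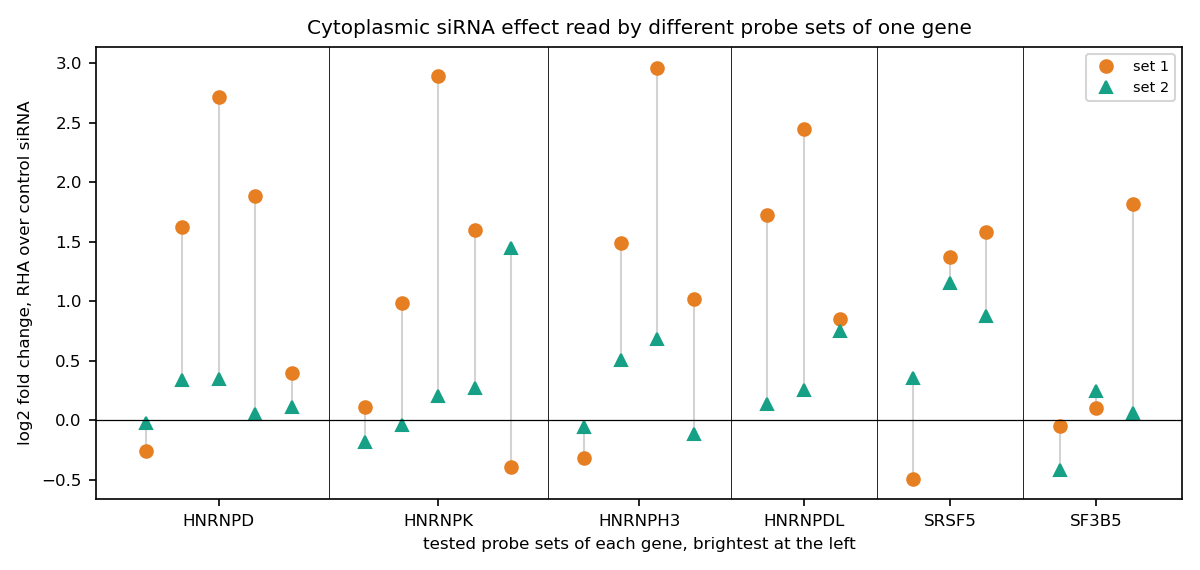
Cytoplasmic log2 fold change of RHA over control siRNA for each tested probe set of 6 genes, ordered from the brightest at the left, with circles for set 1 and triangles for set 2. In set 1 the probe sets of HNRNPD, HNRNPK and HNRNPH3 spread over 2.97, 3.28 and 3.28 log2 units, and in set 2 over 0.37, 1.63 and 0.80.

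Probe sets of the same gene often disagreed. Of 30 genes with at least 2 tested probe sets, 12 had the same sign in all of them for the cytoplasmic siRNA difference in set 1 and 16 in set 2. In polysomal RNA 18 did so in set 1 and 16 in set 2. The median spread between the probe sets of a gene was 1.11 in set 1 and 0.62 in set 2 in cytoplasmic RNA, and 0.69 and 0.34 in polysomal RNA (log2). The plot of several probe sets per gene shows the widest cases: HNRNPK had cytoplasmic differences of 2.89, 1.60, 0.99, 0.11 and -0.39 in set 1, and HNRNPD 2.72, 1.89, 1.62, 0.40 and -0.25. In both genes, 3 of the 5 probe sets were higher by 0.99 or more and 2 had 0.40 or less. Of the 125 probe sets, 16 carry the array's mark for probes shared by several transcripts, 3 that for probes matching unrelated sequence and 1 that for alternative transcripts of a gene, and the part of these marks in the disagreement was not tested.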

How the data were processed

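Expression was measured in 8 samples on 1-colour Affymetrix rhesus macaque arrays. The deposited table gives a linear intensity for each probe set. Per the submitters' processing notes, GCOS and RMA were used, with no version or role given. The array medians of 19.3 to 20.8 were taken as already normalised. Probe sets were named from the platform's gene annotation, which can hold old symbols. A further 5 probe sets with several symbols and 1 under the older symbol HNRPA1 were left out. SRSF1, SRSF3 and SF3B1 were not analysed here, since none was listed as a single symbol.

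Values were put on the log2 scale, and the upper 50% of 52766 non-control probe sets by mean were tested with limma 3.58.1 in R 4.3.3 (lmFit, eBayes, two-sided), as 4 groups over all 8 arrays, with Benjamini-Hochberg adjustment over all 26383 and a threshold of 0.05. The script was run on simulated arrays with less spread than these, as a check of the code and not of the power here. There were 7 comparisons: RHA against control siRNA in polysomal RNA, in cytoplasmic RNA and over both, the difference between these effects, and polysomal against cytoplasmic RNA, with each siRNA and over both. The small number of arrays, 2 a group, limits the precision.

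Replicate numbers came from the sample titles. Deviations from the group means correlated at 0.680 to 0.868 between arrays of the same number. With 2 numbers this was not taken as pairing, so the replicate block is an alternative and sets are shown apart. Other alternatives were the filter, an offset of 16, quantile normalisation, eBayes with trend, the brightest probe set of a gene, each set alone and leaving out each array. Members, lists and the naming rule were chosen with earlier results of these data known. The rule names SNRPB, U2AF2, PRPF8, HNRNPA1, HNRNPK and DHX9. It adds up to 3 genes per class and direction in 3 comparisons (siRNA over both fractions, the difference between fractions, polysomal against cytoplasmic RNA over both siRNAs), by the largest log2 difference with the same sign in both sets and no overlap within a set. Counts of 1.5-fold differences and of groups without overlap were added after seeing the data.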

Additional observations from a re-analysis of the deposited data

How the results depend on the processing

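For RHA against control siRNA over both fractions, the replicate block called 2 of all tested probe sets and 0 of the 110; it changed no other call made on all arrays. With the block, leaving out 1 array in turn gave 0 to 954 calls among all tested over both fractions, 0 to 1150 in cytoplasmic RNA, 0 to 748 for polysomal against cytoplasmic RNA with control siRNA and 0 to 274 over both siRNAs, and among the 110 it gave 0 to 4, 0 to 11, 0 to 10 and 0 to 2. The highest counts all arose when cytoplasmic control replicate 2 was dropped: the least typical array is then the lone cytoplasmic control, its spread assumed to be that of the other groups. Dropping replicate 1 instead gave 33 over both fractions. Without the block every such count was 0. With only a gene's brightest probe set, the class median over both fractions was 0.088 for snRNP and associated proteins and 0.042 for hnRNPs; for hnRNPs it was -0.025 in cytoplasmic RNA and 0.10 for polysomal against cytoplasmic RNA with RHA siRNA, and over both siRNAs it was 0.054 for snRNP and associated proteins. In set 1 alone the median was 0.16 for hnRNPs over both fractions and -0.87 for SR proteins in the difference between fractions. In set 2 alone it was 0.066 for snRNP and associated proteins and 0.15 for hnRNPs over both fractions, and for polysomal against cytoplasmic RNA over both siRNAs 0.076 for SR proteins and 0.048 for snRNP and associated proteins. The number at least 1.5-fold higher over both fractions was 1 after quantile normalisation, 27 in set 1 alone and 9 in set 2 alone, and the number lower was 0 with the offset and 5 in either set alone. In cytoplasmic RNA 52 were higher in set 1 alone, and lower were 1 with the offset or after quantile normalisation, 5 in set 1 alone and 8 in set 2 alone. In polysomal RNA 5 were higher in set 1 alone and 6 in set 2 alone, and 34 were lower in set 1 alone. For the difference between fractions 3 were higher in set 1 alone and 14 in set 2 alone, and 58 were lower in set 1 alone. A single set needs no repeat, so its counts are larger by construction. Leaving out 1 array without the block turned the sign of 9 named values. In the difference between fractions these ran from -0.40 to 0.92 for HNRNPH1, -0.068 to 0.97 for HNRNPLL, -0.24 to 0.93 for PRPF38A, -0.33 to 1.10 for PRPF38B, -0.039 to 1.19 for SF3B5, -2.87 to 0.43 for SNRPB and -0.10 to 0.64 for SRSF10, in polysomal against cytoplasmic RNA from -0.020 to 0.41 for HNRNPUL2, and over both fractions from -0.37 to 1.59 for HNRNPUL2. In those fits the difference between the sets enters, and with the block none of the 9 changed sign. The other alternatives kept the direction of each named value. With 2 arrays a group, a p that misses the threshold does not show that levels were equal.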

Other observations

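Further splicing genes, outside the symbol rule, were taken from a list of 50 other core spliceosome proteins and a list of 50 other splicing regulators. Of the core list 39 genes were tested, with 68 probe sets, and of the regulators 36 genes, with 95 probe sets; 0 of either passed limma's test in any of the 7 comparisons. In cytoplasmic RNA the median log2 difference of RHA against control siRNA was 0.33 for the core proteins, with 54 of the 68 above 0, and 0.29 for the regulators, with 71 of the 95 above 0. As with the 110 splicing factor and hnRNP probe sets, set 1 carried most of it: the core median was 0.53 in set 1 and 0.03 in set 2, and the regulator median 0.42 and 0.08. In polysomal RNA the core median was -0.01, with -0.15 in set 1 and 0.07 in set 2, and the regulator median 0.01, with -0.10 and 0.14.

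At least 1.5-fold higher in both sets in cytoplasmic RNA were 1 core probe set and 7 of regulators, and 3 of regulators were lower, beside 3.01% and 2.66% of all tested probe sets. The core one read AQR, an intron-binding helicase of the spliceosome, with 0.70 in set 1 and 0.98 in set 2 (these genes were chosen after their values were seen). LUC7L, a U1 snRNP-associated protein, had 1.39 and 0.94 in cytoplasmic RNA, and -1.48 and 0.41 in polysomal RNA, in MmugDNA.4942.1.S1_at. In cytoplasmic RNA its probe set MmugDNA.4942.1.S1_x_at had 0.74 and 0.93. The brightest LUC7L probe set changed sign between the sets there (-1.02 and 1.05). RBM39, a relative of U2AF2, was higher in both fractions and both sets, with 0.95 and 0.78 in cytoplasmic RNA and 0.86 and 0.76 in polysomal RNA. The other 2 RBM39 probe sets had less in at least 1 set, with 1.45 and 0.21, and 0.18 and -0.16, in cytoplasmic RNA. The 3 lower probe sets read SYNCRIP (-1.24 and -1.13 in one, -1.17 and -1.415 in another) and SRPK2 (-1.72 and -1.07). Other SYNCRIP probe sets did not share this in cytoplasmic RNA, and the brightest had 0.61 and -0.15. Other SRPK2 probe sets were also lower in both sets, by less in set 1 (-0.40 and -0.62, and -0.15 and -1.48). The exception was the dimmest of SRPK2, with 0.26 and -0.07.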
